A study of Mus musculus with 2 samples.

Results

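H19, Igf2, Meg3, Dlk1, Peg3, Snrpn, Cdkn1c, Plagl1, Mest and Grb10 are imprinted genes, which somatic cells read mainly from the allele of 1 parent. Their levels were compared between germ cells and the somatic cells around them in the mouse testis at postnatal day (PD) 7. The 10 genes were taken from a fixed list by symbol, out of 32285 genes in the tables, and a further 42 imprinted genes served for comparison. The scRNA-seq libraries were made on the 10x Genomics platform, 1 from a control mouse and 1 from a Brca1 vKO mouse. Brca1 vKO mice carry 1 deleted and 1 floxed Brca1 allele together with Vasa-Cre (Brca1 f/- Vasa-Cre), a transgene that starts in fetal germ cells and removes exons 5 to 13. The germ cells of the Brca1 vKO mouse were thus aimed to lack BRCA1, a protein of homologous recombination repair, while its somatic cells kept 1 allele. Testes of both were dissociated with collagenase IV and TrypLE. With 1 library per genotype there was no replicate and no test, all intervals are 95% intervals of counting error only, and mouse, genotype and library cannot be told apart.

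In the germ line the imprints are erased in fetal primordial germ cells and set again according to the sex of the individual. In males, DNA methylation is laid down before birth at a small number of regions, among them those that control the H19-Igf2 and the Dlk1-Meg3 loci. Most other imprinted loci, including those of Peg3, Snrpn, Mest, Plagl1, Grb10 and the Kcnq1 domain with Cdkn1c, take their methylation in the oocyte and stay unmethylated in the male germ line. In somatic cells H19, Meg3, Cdkn1c and Grb10 are read mostly from the maternal allele, and Igf2, Dlk1, Peg3, Snrpn, Plagl1 and Mest mostly from the paternal allele. Many of these genes act on fetal and early postnatal growth, and several decline in most tissues after birth. The counts used here do not separate alleles or see methylation, so they give levels and not imprints.

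The members lie at the following places in GRCm38, the assembly of mm10. H19 (chr7:142575529-142578143) and Igf2 (chr7:142650766-142666816) are neighbours on the minus strand. Cdkn1c (chr7:143458339-143461050) lies further along the same chromosome, and Peg3 (chr7:6703892-6730431) and Snrpn (chr7:59982495-60140219) lie elsewhere on it. Dlk1 (chr12:109452823-109463336) and Meg3 (chr12:109541001-109571726) are neighbours on the plus strand. Mest is at chr6:30723547-30748465, Plagl1 at chr10:13060504-13131694 and Grb10 at chr11:11930508-12038683. H19 and Meg3 are annotated as long noncoding RNAs and the others as protein coding. The symbols were unique in the tables.

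The RefSeq promoter windows of 5 members are shown because they give the DNA just before the start of genes that were high in the stroma (Dlk1, Meg3, Mest, Grb10) and of the member that was not (Snrpn). Each window holds the 250 bases before an annotated start in GRCm38.p6, 5′ to 3′ on the strand of the gene, and overlaps no annotated exon. CpG sites, where DNA methylation acts, are in capitals.
Dlk1, plus strand, chr12:109452573-109452822: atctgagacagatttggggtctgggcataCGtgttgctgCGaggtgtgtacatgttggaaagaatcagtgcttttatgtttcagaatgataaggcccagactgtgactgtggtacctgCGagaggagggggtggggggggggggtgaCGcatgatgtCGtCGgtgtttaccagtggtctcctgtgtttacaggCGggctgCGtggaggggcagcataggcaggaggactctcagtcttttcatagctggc
Meg3, plus strand, chr12:109540746-109540995: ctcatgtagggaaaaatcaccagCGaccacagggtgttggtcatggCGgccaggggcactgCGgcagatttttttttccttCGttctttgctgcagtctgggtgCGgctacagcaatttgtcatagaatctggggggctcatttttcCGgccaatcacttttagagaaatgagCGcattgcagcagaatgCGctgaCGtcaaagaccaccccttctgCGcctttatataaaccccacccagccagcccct
Mest, plus strand, chr6:30737800-30738049: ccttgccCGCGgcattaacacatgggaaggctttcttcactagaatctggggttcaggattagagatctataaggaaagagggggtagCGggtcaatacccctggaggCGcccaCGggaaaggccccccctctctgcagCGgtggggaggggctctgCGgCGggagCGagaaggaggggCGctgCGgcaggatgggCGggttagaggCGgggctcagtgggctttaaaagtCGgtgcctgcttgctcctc
Grb10, minus strand, chr11:12037421-12037670: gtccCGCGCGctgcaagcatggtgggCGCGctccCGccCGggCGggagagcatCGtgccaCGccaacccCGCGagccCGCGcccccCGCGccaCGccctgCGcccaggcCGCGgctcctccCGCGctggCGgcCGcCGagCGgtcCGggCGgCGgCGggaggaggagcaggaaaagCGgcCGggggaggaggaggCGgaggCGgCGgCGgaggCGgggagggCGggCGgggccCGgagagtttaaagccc
Snrpn, minus strand, chr7:60005200-60005449: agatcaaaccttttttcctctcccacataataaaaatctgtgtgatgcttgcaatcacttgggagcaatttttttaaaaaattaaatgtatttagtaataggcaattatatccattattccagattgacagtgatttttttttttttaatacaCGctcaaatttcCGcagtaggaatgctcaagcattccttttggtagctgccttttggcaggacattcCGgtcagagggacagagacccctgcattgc
The Grb10 window held 40 CpG sites, the Mest window 14, the Meg3 window 10, the Dlk1 window 8 and the Snrpn window 3, against a median of 6 over 32851 windows of 27025 genes. The Mest, Grb10 and Snrpn windows shown lie within introns of longer transcripts of the same genes. Exon-free windows that are not shown held 8 sites in Grb10, 4, 3 and 2 in Snrpn, and 6 and 1 in Igf2. Igf2 was also high in the stroma. No difference between the genes was read from these counts. The letters TGCCGC, or GCGGCA on the other strand, are the motif that ZFP57 binds when it is methylated. They occurred in the Meg3 window, in the Mest window, and in 2850 of all windows (8.68%). Over the 18 windows of the 8 members in the table, 4 windows of 3 members (Meg3, Mest and Plagl1) held them. The Mest windows among these, chr6:30737800-30738049 and chr6:30737803-30738052, are nearly the same stretch of DNA, so the 4 windows are not separate observations.

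There were 5812 barcodes with 120568700 UMIs for the control and 9456 barcodes with 165062097 UMIs for the Brca1 vKO mouse. After filtering, 5077 and 8712 cells remained, with medians of 16917 and 12970.5 UMIs and of 4746 and 4169 genes per cell. Both libraries shared 21 barcode strings. Clusters were named from marker genes after all 52 imprinted genes had been left out of the clustering. There were 669 control and 220 Brca1 vKO germ cells. In the same order, the Sertoli cells numbered 2021 and 4160, the stromal cells (Dcn, Pdgfra, Col3a1) 869 and 2005, the myoid cells 542 and 1391 and the Leydig cells 47 and 112. The names rest on markers only, so each class is a set of cells like that type. Pericyte-like and endothelial-like clusters held 48 and 69, and 27 and 36 cells. Levels are the share of a gene in the summed UMIs of a class, scaled to a total of 1000000 UMIs (CPM), given first for the control and then for the Brca1 vKO library. Dazl, a germ cell marker, stood at 1112 and 1000.1 CPM in the germ cells against 7.27 and 2.01 CPM in the stromal cells, and Dcn, a stromal marker, at 30.6 and 42.1 CPM in the germ cells against 2862 and 2648 CPM in the stromal cells. All 16 germ cell markers were highest in the germ cells of both libraries, and 9 of 12 stromal markers were highest in the stromal cells. The exceptions were Pdgfra, Tcf21 and Mfap4 in the control and Pdgfra, Ptch1 and Mfap4 in the Brca1 vKO library. Brca1 itself was at 72.5 and 45.1 CPM in the germ cells, a Brca1 vKO over control ratio of 0.622 (0.558 to 0.691), and was also lower in the stromal cells (ratio 0.521). Counts per gene do not show which exons were read, so they do not measure the deletion itself.

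Of the 10 members, 9 were at least 2-fold lower in the germ cells than in the stromal cells of the control library, on the log2(CPM + 10) scale, where 11.3% of the 15590 genes with at least 50 UMIs were that much lower. The same 9 members were lower in the Brca1 vKO library, where 12.3% of 14198 genes were. None of the members was 2-fold higher in the germ cells, whereas 16.9% and 18.2% of all genes were. The member outside these counts was Snrpn. The median log2 difference of germ from stromal cells was -3.24 over the members, -0.38 over the other imprinted genes and 0.22 over all genes in control cells, and -3.27, -0.46 and 0.17 in Brca1 vKO cells. Scaling by the median of ratios moved the all-gene median to 0.05 and -0.04, and left 1644 genes higher and 2295 lower in place of 2641 and 1761 in the control, and 1679 higher and 2301 lower in place of 2577 and 1743 in Brca1 vKO cells, with the same 9 members lower. Members whose locus is methylated on the paternal allele had a median of -4.18 and -3.67, and those methylated on the maternal allele -3.11 and -3.27.

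**Figure D1:**
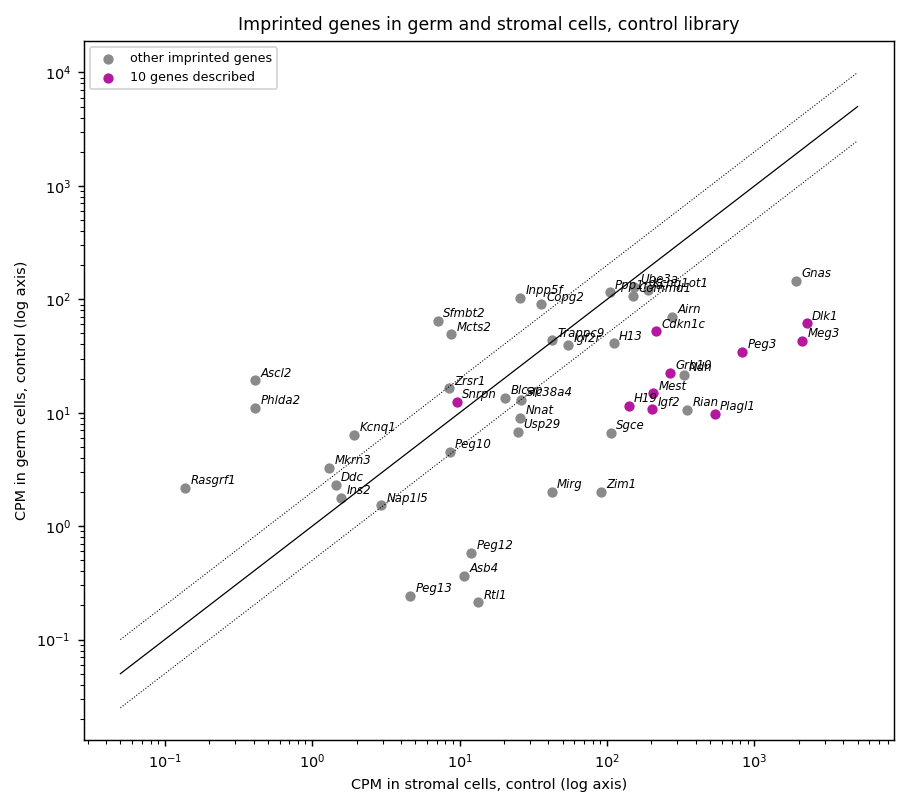
Level of the imprinted genes in germ cells (y axis, CPM, log scale) against stromal cells (x axis, CPM, log scale) in the control library, for genes with at least 50 UMIs over both sums. The solid line marks equal levels and the dotted lines a 2-fold difference in CPM. Of the 10 members (magenta), 9 lie below the lower dotted line and Snrpn lies near the solid line, while the other imprinted genes (grey) lie on both sides.

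Meg3, a long noncoding RNA, was at 2101 and 2279 CPM in the stromal cells and at 43.0 and 59.1 CPM in the germ cells. It was thus 48.8-fold (46.3 to 51.6) higher in the stromal cells of the control and 38.6-fold (35.4 to 42.1) higher in those of the Brca1 vKO library. The germ cell and stromal intervals were far apart in both libraries. The myoid cells followed the stromal cells with 514 and 689 CPM, then the pericyte-like cells with 507 and 313 CPM and the Leydig cells with 322 and 487 CPM. The first 2 of these did not differ beyond counting error in the control library. Endothelial-like cells (20.4 and 51.8 CPM) and Sertoli cells (19.2 and 16.3 CPM) were lowest. In the control Sertoli cells, 75.0% of the Meg3 UMIs came from 10 of the 2021 cells. In the germ cells 49.6% and 66.2% of the Meg3 UMIs came from 10 cells of each library. With the Meg3 UMIs of those cells left out, but the UMI total of all germ cells kept, Meg3 was at 21.7 and 20.01 CPM.

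Dlk1, which encodes a transmembrane protein of the NOTCH ligand family and is a neighbour of Meg3, was at 2253 and 2048 CPM in the stromal cells. Its germ cell level was 61.4 and 43.5 CPM, so that it was 36.7-fold (35.1 to 38.4) and 47.1-fold (42.6 to 52.2) higher in the stromal cells. No other class came near the stromal level. The pericyte-like cells had 212 and 182 CPM, the myoid cells 108 and 135 CPM, the Leydig cells 45.02 and 188 CPM, the Sertoli cells 17.8 and 16.1 CPM and the endothelial-like cells 6.79 and 18.3 CPM. In the control library the Leydig cells lay below the germ cells, and in the Brca1 vKO library they lay above them.

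Igf2, a fetal growth factor, was at 203 and 179.7 CPM in the stromal cells and at 10.7 and 28.7 CPM in the germ cells. The stromal cells were 19.01-fold (17.0 to 21.3) and 6.27-fold (5.53 to 7.14) higher. The order of the other classes was myoid (113 and 113 CPM), Leydig (58.8 and 70.9 CPM), then endothelial-like (35.1 and 25.5 CPM) and pericyte-like cells (31.9 and 22.4 CPM), whose intervals overlapped. Sertoli cells were lowest with 1.86 and 1.75 CPM.

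H19, a long noncoding RNA downstream of Igf2, differed from Igf2 in its order. It was highest in the myoid cells (151 and 152 CPM), followed by the stromal cells (139.8 and 112 CPM), a myoid over stromal ratio of 1.08 (1.005 to 1.16) in control and 1.35 (1.28 to 1.43) in Brca1 vKO cells. The germ cells had 11.5 and 14.8 CPM. The stromal cells were 12.1-fold (10.9 to 13.6) and 7.56-fold (6.35 to 9.07) higher than the germ cells. Leydig cells (8.27 and 36.6 CPM), pericyte-like cells (9.39 and 11.96 CPM) and endothelial-like cells (2.26 and 10.4 CPM) had few UMIs, and Sertoli cells had 5.78 and 1.81 CPM.

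**Figure D2:**
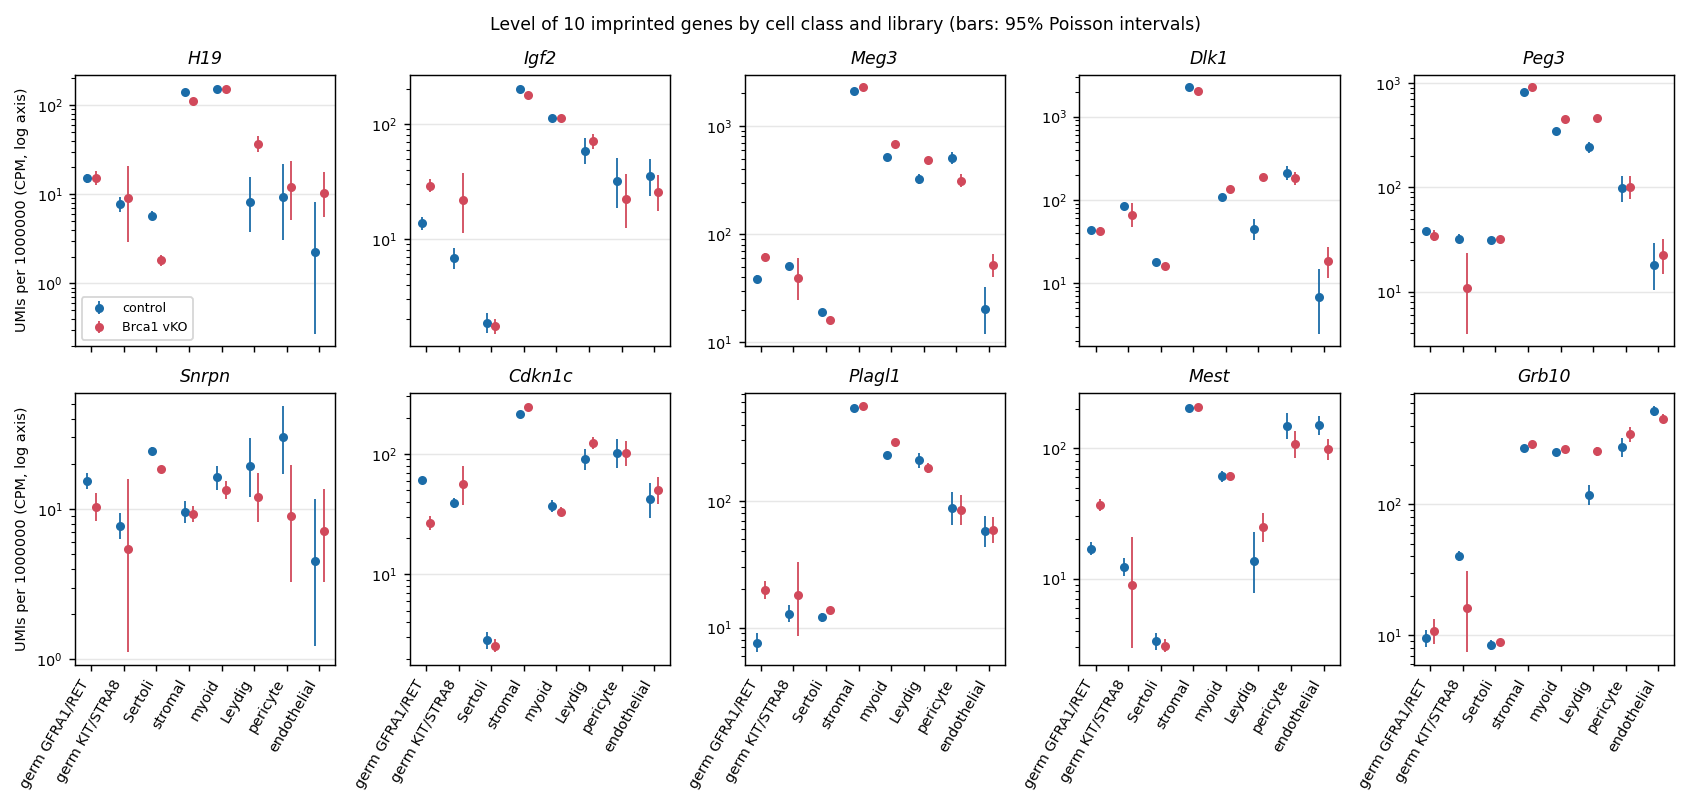
CPM (y axis, log scale) of each of the 10 members in 8 classes of cells (x axis), with the control library in blue and the Brca1 vKO library in red, and bars for 95% Poisson intervals. Among them, 7 are highest in the stromal cells, H19 is highest in the myoid cells, Grb10 in the endothelial-like cells, and Snrpn stays at or below 30.1 CPM in all classes.

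Among the genes methylated on the maternal allele, Peg3, which encodes a zinc finger protein, was at 827 and 907 CPM in the stromal cells and at 34.6 and 32.8 CPM in the germ cells. The stromal cells were 23.9-fold (22.5 to 25.4) and 27.6-fold (24.6 to 31.1) higher. Myoid cells (348 and 449 CPM) and Leydig cells (243 and 465 CPM) followed. Sertoli cells, with 31.1 and 31.9 CPM, were close to the germ cells, and in the Brca1 vKO library the intervals of both overlapped.

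Plagl1, a zinc finger transcription factor that acts on other imprinted genes, was at 538 and 556 CPM in the stromal cells. Its germ cell level of 9.81 and 19.4 CPM was 54.8-fold (49.0 to 61.5) and 28.6-fold (24.6 to 33.4) below the stromal one. For Plagl1 the germ cells were not above the Sertoli cells of the control library, which had 12.1 CPM, and were above those of the Brca1 vKO library, which had 13.8 CPM. Myoid cells had 229 and 293 CPM and Leydig cells 209 and 182 CPM.

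Cdkn1c, which encodes the cyclin-dependent kinase inhibitor p57, showed the smallest difference among the 9 in control cells. It was at 215 and 246 CPM in the stromal cells and at 52.3 and 28.9 CPM in the germ cells, 4.11-fold (3.87 to 4.36) and 8.50-fold (7.51 to 9.67) lower. The Sertoli cells had 2.83 and 2.56 CPM, below the germ cells by more than the counting error in both libraries. Pericyte-like cells had 101 and 102 CPM and Leydig cells 91.0 and 122 CPM, with overlapping intervals. Myoid cells, at 37.0 and 33.2 CPM, were below the germ cells of the control library.

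Mest, which encodes a protein of the alpha/beta hydrolase family, was at 205 and 206 CPM in the stromal cells and at 14.8 and 35.4 CPM in the germ cells. The stromal cells were 13.8-fold (12.6 to 15.2) and 5.81-fold (5.19 to 6.53) higher. Pericyte-like cells (148 and 108 CPM) and endothelial-like cells (151 and 98.0 CPM) followed with overlapping intervals, then myoid cells (60.9 and 61.8 CPM) and Leydig cells (13.8 and 24.97 CPM). Sertoli cells were lowest with 3.31 and 3.06 CPM. Mest shares a stretch of DNA with Copg2 on the opposite strand.

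Grb10, an adaptor that dampens insulin and IGF receptor signalling, had its highest level outside the stroma. The endothelial-like cells had 519 and 452 CPM, above the pericyte-like cells (274 and 342 CPM), the stromal cells (269 and 287 CPM) and the myoid cells (251 and 263 CPM). The germ cells had 22.4 and 10.9 CPM, 12.04-fold (11.1 to 13.05) and 26.4-fold (21.6 to 32.6) below the stromal cells. Sertoli cells had 8.41 and 8.81 CPM.

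Snrpn, which encodes a component of the splicing machinery, was at 12.6 and 10.3 CPM in the germ cells and at 9.60 and 9.30 CPM in the stromal cells. The germ over stromal ratio was 1.31 (1.08 to 1.60) in control and 1.11 (0.865 to 1.42) in Brca1 vKO cells. The second interval includes 1. Scaling by the median of ratios turned the log2 difference of germ from stromal cells from 0.20 to -0.02 in control and from 0.08 to -0.12 in Brca1 vKO cells, so no direction was read. Sertoli cells stood above both with 24.5 and 18.4 CPM, and myoid cells had 16.2 and 13.4 CPM. Snurf, which shares a transcript with Snrpn, had 0 UMIs in all sums. Reads of the shared transcript were thus not assigned to Snurf, and may have been assigned to Snrpn or to no gene.

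The same contrast was seen as shares of cells once each cell had been thinned to 2000 UMIs, with 1 Brca1 vKO germ cell, 5 control stromal cells and 2 Brca1 vKO stromal cells too shallow. Meg3 was detected in 4.19% (2.80 to 5.99) of the germ cells and 87.5% (85.1 to 89.6) of the stromal cells of the control library, against 0.999% of its Sertoli cells. Dlk1 was detected in 9.42% of the germ cells, 84.4% of the stromal and 1.45% of the Sertoli cells. Meg3 and Dlk1 were thus found in most stromal cells at this depth and in few germ cells. Cdkn1c was detected in 10.5% (8.25 to 13.03) of the germ cells, 31.6% of the stromal and 0.399% of the Sertoli cells. Snrpn was detected in 2.39%, 1.74% and 5.29%. Without thinning, at a median of 46161 UMIs per germ cell and 16242 per stromal cell, Meg3 was detected in 47.1% of the germ cells and 98.2% of the stromal cells.

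The 12 stromal markers were also counted in the germ cells, as a measure of stromal RNA there. Whether UMIs of these markers came from stromal cells or were made by the germ cells was not tested. The germ over stromal ratios of the markers had a median of 0.0164 in control cells, from 0.0107 for Dcn to 0.153 for Ptch1. In Brca1 vKO cells the median was 0.0229, from 0.0116 to 0.145. None of the 12 markers was at 0. The ratios of Plagl1 (0.0182) and Meg3 (0.0205) in control cells and of Dlk1 (0.0212) and Meg3 (0.0259) in Brca1 vKO cells were near those medians. The control ratios of Snrpn and Cdkn1c (0.243) were above all 12 markers. Those of H19, Igf2, Dlk1, Peg3, Mest and Grb10, from 0.0273 for Dlk1 to 0.0831 for Grb10, were above all markers but Ptch1. In Brca1 vKO cells the ratios of Snrpn, Mest (0.172) and Igf2 (0.159, 0.140 to 0.181) were above all 12 markers. The Igf2 interval reached below the value of Ptch1, however. The Brca1 vKO ratios of H19, Peg3, Cdkn1c, Plagl1 and Grb10 were above all markers but Ptch1.

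Scrublet marked 70 of the 669 control germ cells (10.5%) and 27 of the 220 Brca1 vKO germ cells (12.3%) as likely doublets. Without them the marker medians were 0.00686 and 0.00674, while Ptch1 was at 0.135 and 0.117. The Meg3 ratio was 0.00795 and 0.00800 without the likely doublets. Plagl1 went to 0.0103 and 0.0242. Grb10 went from 0.0831 to 0.0768 in control cells and from 0.0379 to 0.0148 in Brca1 vKO cells. In contrast, the ratios of H19 (0.0768 and 0.113), Igf2 (0.0491 and 0.152), Mest (0.0642 and 0.169) and Cdkn1c (0.242 and 0.107) moved little when the likely doublets were removed. Dlk1 went from 0.0273 to 0.0200 in control and from 0.0212 to 0.0109 in Brca1 vKO cells, and Peg3 from 0.0419 to 0.0321 and from 0.0362 to 0.0179, changes that lay in between. How much of the germ cell level came from stromal RNA was not tested further.

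**Figure D3:**
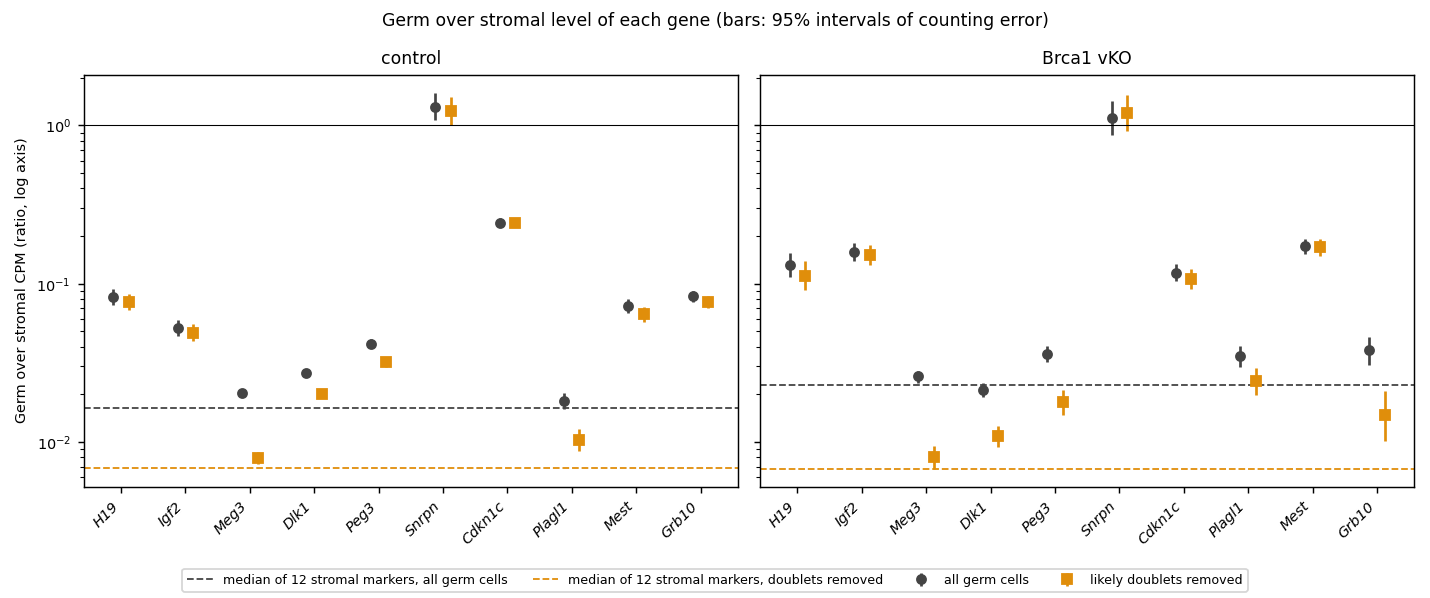
Germ over stromal ratio of CPM (y axis, log scale) for each member (x axis), in the control (left) and Brca1 vKO library (right). Grey points take all germ cells and orange squares leave out likely doublets, bars are 95% intervals of counting error, and dashed lines are the medians of 12 stromal markers. Meg3 drops to near the orange line, whereas H19, Igf2, Cdkn1c and Mest stay in place.

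Germ cells were split by the receptors of undifferentiated spermatogonia (Gfra1, Ret) and by genes of differentiating spermatogonia (Kit, Stra8). The control library held 369 GFRA1/RET and 253 KIT/STRA8 cells, and the Brca1 vKO library 201 and 12, with 47 and 7 cells that were low in both pairs of genes or tied. Grb10 differed most among the members in the control library, with 9.45 CPM (8.08 to 10.99) in GFRA1/RET and 40.3 CPM (36.9 to 43.8) in KIT/STRA8 cells, a ratio of 4.26 (3.58 to 5.10). The intervals did not overlap, and without likely doublets the ratio was 5.52 (4.50 to 6.82). Dlk1 was also higher in KIT/STRA8 cells, at 84.7 against 43.8 CPM, a ratio of 1.93 (1.76 to 2.12), or 2.22 without likely doublets. Plagl1 had 12.9 against 7.61 CPM, a ratio of 1.70 (1.35 to 2.14).

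For 6 other members the ratio of KIT/STRA8 to GFRA1/RET cells lay below 1 in the control library. This count used no size limit, and the share of all genes with such ratios was not computed. H19 was at 7.77 against 15.1 CPM (ratio 0.515, 0.406 to 0.648), Igf2 at 6.79 against 13.7 CPM (0.495, 0.385 to 0.633), Snrpn at 7.77 against 15.4 CPM (0.505, 0.399 to 0.636), Cdkn1c at 39.1 against 60.4 CPM (0.648, 0.583 to 0.720) and Mest at 12.4 against 16.9 CPM (0.730, 0.600 to 0.886). The 2 members of the H19-Igf2 locus thus had like ratios. Peg3 was the closest of the 6 to equal levels, with a ratio of 0.853 (0.754 to 0.964) and of 0.748 (0.641 to 0.872) without likely doublets. Meg3 had a ratio of 1.30 that was 1.05 (0.866 to 1.26) without likely doublets. The sum of the 12 stromal markers was 118 CPM in KIT/STRA8 and 109 CPM in GFRA1/RET cells of the control library without likely doublets. Within these sums Ptch1 was at 22.2 against 64.9 CPM, while Dcn (ratio 2.17), Col3a1 (2.79) and Col1a2 (3.38) were higher in the KIT/STRA8 cells by ratios like those of Dlk1 and Plagl1. Their part in the ratios of the members was not tested. In the Brca1 vKO library the 12 KIT/STRA8 cells held 3 to 37 UMIs per member, and their Gfra1 level was 155 CPM against 18.0 CPM in the control KIT/STRA8 cells. No split was read from them.

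**Figure D4:**
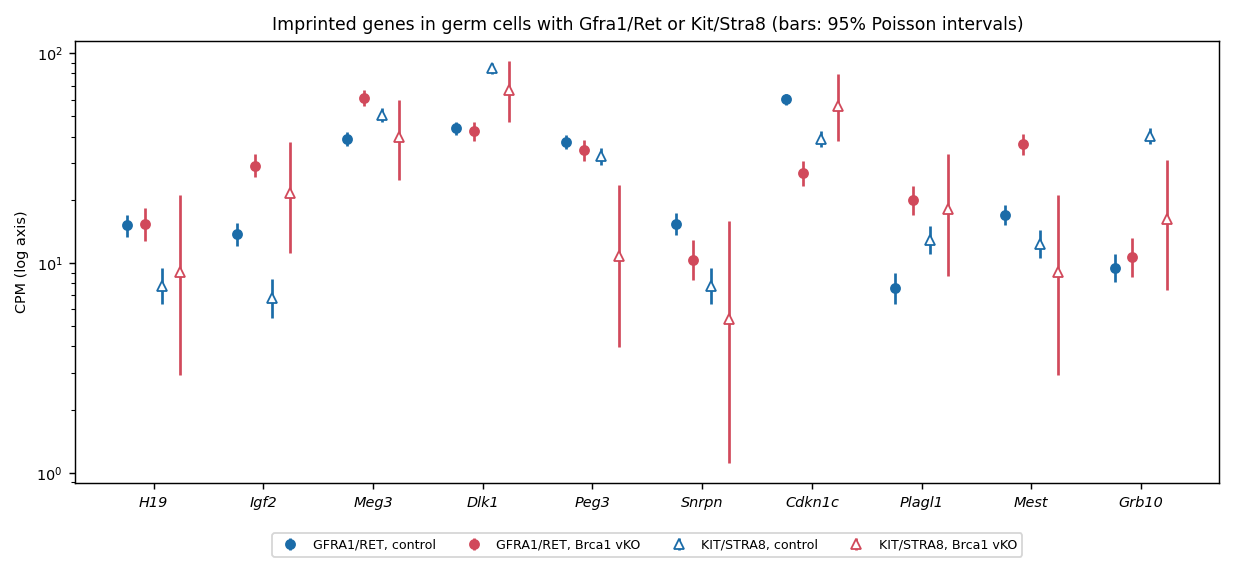
CPM (y axis, log scale) of each member (x axis) in GFRA1/RET (circles) and KIT/STRA8 germ cells (triangles) of the control (blue) and Brca1 vKO library (red), with 95% Poisson intervals. In the control library Grb10 is 4.26-fold higher in the KIT/STRA8 cells, and the bars of the 12 Brca1 vKO KIT/STRA8 cells are wide.

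A further cluster of 411 and 55 cells scored highest for the germ cell markers and had medians of 3470 and 3463 UMIs. Its leading genes held 4 markers of erythroid cells (Hbb-bt, Hba-a1, Hba-a2 and Hbb-bs) against 2 germ cell markers, and it was not named. How much of the RNA of this cluster came from erythroid cells was not tested. In its control cells Cdkn1c was at 70.3 CPM and Dlk1 at 85.9 CPM, while Grb10 was at 7.55 CPM and Meg3 at 28.8 CPM. With this cluster added to the germ cells, the same 9 members were lower than in the stroma.

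Within the stroma the members were not uniform. A cycling cluster of 146 control and 270 Brca1 vKO cells had less Meg3 than the larger stromal cluster, at 1151 against 2368 CPM and at 1270 against 2511 CPM, ratios of 0.486 and 0.506. Dlk1 was lower too, with ratios of 0.586 and 0.509. H19 was higher in the cycling cells in both libraries, at 200 against 123 CPM (ratio 1.62, 1.48 to 1.78) and 149.6 against 104 CPM (ratio 1.44, 1.32 to 1.57). Cdkn1c, whose product restrains the cell cycle, had ratios of 0.792 (0.722 to 0.868) and 0.592 (0.548 to 0.639), and Mest had 0.968 (0.885 to 1.06) and 0.860 (0.799 to 0.925).

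At a finer resolution the other stromal cells fell into 2 clusters, led by Kctd16 with Frmpd4 and by Htra3 with Cyp26b1. The cluster led by Htra3 had less Dlk1 (ratios 0.461 and 0.459), Meg3 (0.484 and 0.562), Mest (0.517 and 0.537) and Igf2 (0.555 and 0.553) than the cluster led by Kctd16. Plagl1 had ratios of 0.9996 (0.952 to 1.05) and 1.01 (0.978 to 1.05), with intervals that include 1, and Peg3 had 0.881 and 0.911. The neighbours Dlk1 and Meg3 were lower in the same cluster, but H19 did not follow Igf2, with ratios of 1.21 (1.09 to 1.35) and 1.02 (0.936 to 1.11). These clusters were made from the same cells, so the values describe them and test nothing.

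Genes that lie beside the members were compared in the same way. In the Dlk1-Meg3 locus, the noncoding RNAs Rian and Mirg and the gene Rtl1 were all lower in the germ cells. Rian was 33.2-fold (29.7 to 37.1) and 21.4-fold (18.4 to 25.2), Mirg 20.8-fold and 17.8-fold, and Rtl1 62.5-fold and 59.0-fold higher in the stromal cells, the last from 7 and 2 germ cell UMIs. Beside Peg3, Zim1 was 45.2-fold and 41.2-fold, and Usp29 3.64-fold and 11.6-fold higher in the stromal cells. These neighbours had the same direction as Dlk1, Meg3 and Peg3.

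Of the neighbours of Cdkn1c, Ascl2 and Phlda2 were higher in the germ cells. Ascl2, a transcription factor, had 633 and 103 UMIs in the germ cells and 6 and 6 UMIs in the stromal cells, a germ over stromal ratio of 47.0 (21.5 to 129) and 50.01 (22.2 to 139). Phlda2, a growth regulator of the placenta, had 362 and 29 UMIs in the germ cells and 6 and 0 UMIs in the stromal cells. Kcnq1ot1, the antisense RNA of the same domain, was at 120 and 73.6 CPM in the germ cells and 189 and 189 CPM in the stromal cells, which is the direction of Cdkn1c, and it overlaps Kcnq1, whose reads it may share. Copg2, beside Mest, had germ over stromal ratios of 2.56 and 2.36, and Ins2, beside Igf2, had 1.77 and 1.58 CPM in control germ and stromal cells.

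Over the 42 other imprinted genes, 36 had 50 UMIs or more in control cells and 34 in Brca1 vKO cells. Of these, 11 were lower in the germ cells of each library, where 11.3% and 12.3% of all genes were. Higher were 6 and 5, where 16.9% and 18.2% of all genes were. Besides the neighbours above, Asb4 was among the lowest by ratio, 29.2-fold (16.2 to 57.7) higher in the control stromal cells. It was not among the 11, which were counted on the log2(CPM + 10) scale. Sfmbt2 (ratios 9.09 and 14.2) and Mcts2 (5.62 and 6.98) were higher in the germ cells. Rasgrf1, which like H19-Igf2 takes its methylation in the male germ line, had 71 and 35 UMIs in the germ cells. The stromal cells had 2 and 0 UMIs of Rasgrf1, a germ over stromal ratio of 15.8 (4.22 to 133) in the control. It was not among the 6 genes counted as higher there.

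The genes whose levels were most like those of the members over 22 sums (11 groups of cells without overlap, in both libraries) were found among 7907 genes. Meg3 was most like Nrk (Pearson's r = 0.988), Col3a1 (0.977) and Col1a2 (0.976), of which the last 2 encode fibrillar collagens and were used to name the stroma. Plagl1 was most like Adcy2 (0.981), Nlgn1 and Thbd, Peg3 like Olfml3 (0.977) and Wfdc1, and Dlk1 like Entpd2 (0.960), Thbs3 and Dcn. Grb10 was most like Rhoj (0.976), Igfbp7 and Sparcl1, which are known from endothelial cells. H19 was most like Lsp1 (0.963), Adcy7 and Hhip, Igf2 like Rpl36a (0.949), Tshz3 and the imprinted Rian, Mest like Ntan1 (0.920), B3glct and Lmna, and Cdkn1c like Map1a (0.888), Slit3 and Ccnd3. Among the members themselves, r was highest for Meg3 with Peg3 (0.945) and with Plagl1 (0.945). The sums share libraries and depth, so these values are descriptions. Snrpn stayed under 50 CPM in all sums and was not included.

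Between the libraries, the members did not reach 1.5-fold on the log2(CPM + 10) scale in Sertoli, stromal or myoid cells, where 0.258%, 0.317% and 0.609% of all genes did. In the stromal cells the Brca1 vKO over control ratios ran from 0.803 for H19 to 1.14 for Cdkn1c, and in the myoid cells from 0.826 for Snrpn to 1.34 for Meg3. H19 in the Sertoli cells was an exception when taken without the pseudocount of 10 CPM, with 314 and 184 UMIs and a ratio of 0.313 (0.260 to 0.377). This value was picked after it had been seen.

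In the GFRA1/RET germ cells, 4 of the 10 members differed by 1.5-fold or more on the log2(CPM + 10) scale, where 5.2% of all genes did. Igf2 was at 13.7 and 29.1 CPM (ratio 2.13, 1.77 to 2.55), Plagl1 at 7.61 and 19.9 CPM (2.61, 2.07 to 3.30), and Mest at 16.9 and 36.8 CPM (2.17, 1.84 to 2.55). All 3 were higher in the Brca1 vKO library. Cdkn1c was lower, at 60.4 and 26.8 CPM, a ratio of 0.444 (0.382 to 0.513). H19, the neighbour of Igf2, had 15.1 and 15.4 CPM, with overlapping intervals.

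In the same cells, 4 of the 11 stromal markers with enough UMIs were higher in the Brca1 vKO library, with a median ratio of 1.65 and a sum of 203 and 314 CPM. Without likely doublets the sums were 109 and 126 CPM, of which Ptch1 was 64.9 and 37.2 CPM. Other markers were then still higher in the Brca1 vKO library, among them Dcn (ratio 2.35), Col3a1 (2.38) and Col1a2 (2.56). The ratios of the members were 2.18 (1.78 to 2.67) for Igf2, 3.19 (2.32 to 4.41) for Plagl1, 2.38 (1.99 to 2.85) for Mest and 0.421 (0.356 to 0.496) for Cdkn1c without those cells. Peg3 went from 0.907 to 0.539 (0.435 to 0.662), Dlk1 from 0.968 to 0.655 (0.537 to 0.795), Grb10 from 1.13 to 0.518 (0.325 to 0.797) and Meg3 from 1.57 to 1.10 (0.883 to 1.37). Kit, used for the split, was at 7.33 and 32.0 CPM in the GFRA1/RET cells, and Gfra1 at 286 and 345 CPM. The part of these differences, and of the stromal markers, in the ratios was not tested.

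Among the KIT/STRA8 cells, 3 members differed by 1.5-fold, where 15% of all genes did. Igf2 was higher in the Brca1 vKO cells (ratio 3.18, 1.59 to 5.84), and Peg3 (0.335) and Grb10 (0.403) were lower, from 12, 6 and 9 UMIs in 12 cells. Without likely doublets the Peg3 ratio was 0.522 (0.190 to 1.15), an interval that includes 1, and Peg3 was not counted. With a mitochondrial limit of 5%, Igf2 and Grb10 were not counted, and H19, Plagl1 and Mest were. That limit changed the germ class, whose median in the control was 6792 UMIs in place of 46161. It held 173 control and 8 Brca1 vKO KIT/STRA8 cells, and 114 and 48 GFRA1/RET cells in place of 369 and 201.

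In the Leydig cells, 4 members were at least 1.5-fold higher in the Brca1 vKO library on the log2(CPM + 10) scale. They were H19 (ratio of plain CPM 4.43, 2.24 to 10.0), Dlk1 (4.18, 3.11 to 5.73), Peg3 (1.91, 1.67 to 2.19) and Grb10 (2.17, 1.79 to 2.64). On that scale 7.21% of all genes differed by that much. Meg3 and Mest were also more than 1.5-fold higher in plain CPM, but not on that scale. Plagl1, at 209 and 182 CPM, was not among them (ratio 0.867, 0.738 to 1.02). Of the 11 stromal markers with enough UMIs, 7 were higher as well, with a median ratio of 1.69 and a sum of 1684 and 2692 CPM, and none was at 0. The control class held 47 cells. The part of the stromal transcripts in these 4 differences was not tested.

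**Figure D5:**
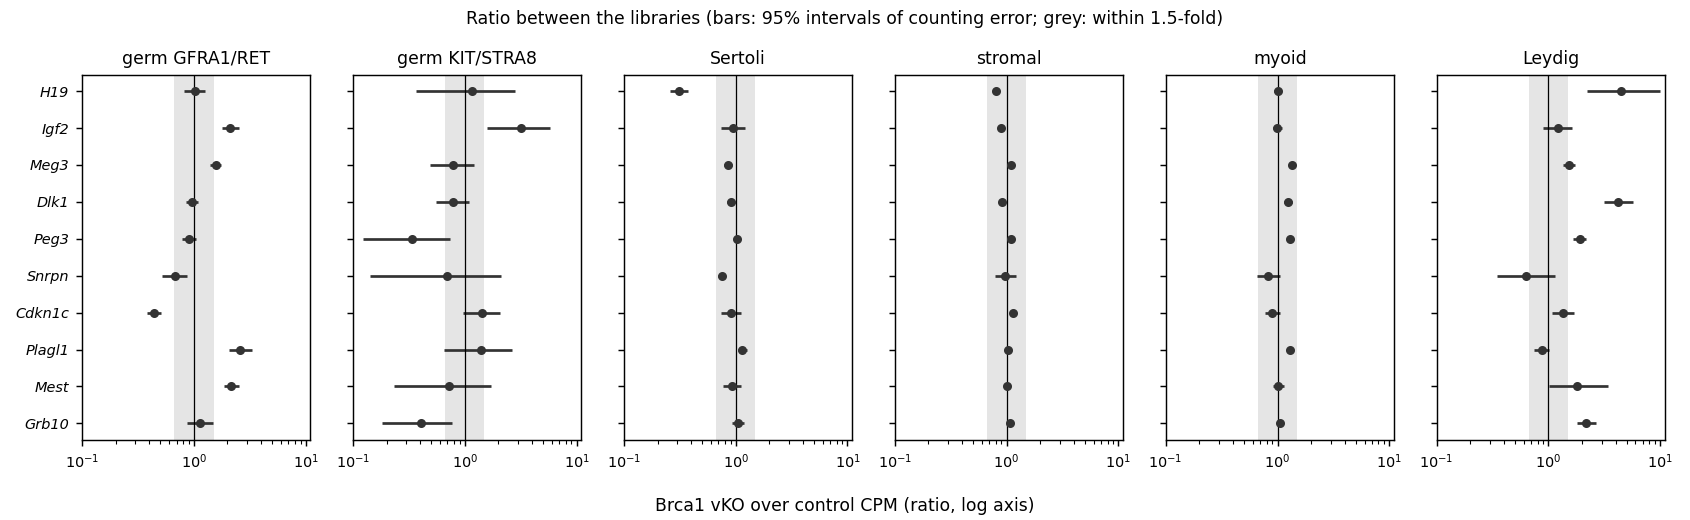
Brca1 vKO over control ratio of CPM (x axis, log scale) for each member (y axis) in 6 classes of cells, with 95% intervals of counting error and a grey band for ratios within 1.5-fold. In stromal and myoid cells all 10 members lie in the band. In the GFRA1/RET germ cells Igf2, Plagl1, Mest and Meg3 lie to its right and Cdkn1c to its left. Meg3 was not counted there on the log2(CPM + 10) scale.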

How the data were processed

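The 2 libraries were made from PD7 testes with 10x Genomics chemistry. The authors aligned reads to mm10 and used Cell Ranger 6.0.2 to tally UMIs. What they deposited is the raw count of UMIs per gene and barcode. R 4.2.3 and Seurat 4.3.0.1 are also named in the submitters' processing notes. Cell types were assigned anew.

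Cells needed 750 genes or more and no more than 10% mitochondrial UMIs, following the methods, which left the number stated by the study in the control and 1 cell more in the Brca1 vKO library. The 2000 most variable genes without the 52 imprinted genes gave 20 principal components, corrected by library with Harmony's algorithm (rewritten here), a graph of 20 neighbours and Louvain clusters at a resolution of 0.25 (Python 3.11.15, scanpy 1.11.5, igraph 0.11.9, scikit-learn 1.9.0, scipy 1.17.1, numpy 2.4.6). A first choice of variable genes by binned dispersion had merged Leydig with most stromal cells. It was replaced, after that was seen, by a variance-stabilizing choice, and kept as an alternative. Clusters were named by a marker score of at least 1, at least 3 detected markers and their 10 leading genes. Germ cells were split by whether the UMIs of Gfra1 and Ret or of Kit and Stra8 were higher, with at least 2 UMIs. Scrublet marked doublets, which were kept except where stated.

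UMIs were summed per class and library. Sums have exact Poisson intervals, ratios exact conditional intervals and shares exact Clopper-Pearson intervals. UMIs of 1 mouse per genotype give no error between mice. A member counted as lower or higher at 2-fold between classes or 1.5-fold between libraries on log2(CPM + 10), with at least 50 UMIs over both sums. The steps were tested on simulated counts. The 10 members, the 42 other imprinted genes and the markers were chosen with earlier results of these data known. All members were named, with neighbours of the same locus, the 5 largest ratios in each direction among the other imprinted genes, and 3 genes of like level per member, of which 1 is not reported here. Promoter windows and gene positions came from RefSeq and GENCODE tables of GRCm38. Of the members, 8 were matched in the promoter table. Tried were 13 other settings and 2 more chosen after seeing the data.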

Additional observations from a re-analysis of the deposited data

Results flagged for a closer look

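Peg3 and Grb10 were on opposite sides between the libraries in different cells. In the Leydig cells, the Brca1 vKO over control ratio was 1.91 (1.67 to 2.19) for Peg3 and 2.17 (1.79 to 2.64) for Grb10. In the KIT/STRA8 germ cells it was 0.335 (0.122 to 0.735) for Peg3 and 0.403 (0.183 to 0.770) for Grb10. The intervals cover counting error only, and the difference between the cell classes was not tested. The KIT/STRA8 values of the Brca1 vKO library rest on 6 and 9 UMIs in 12 cells, and the Leydig values of the control library on 47 cells. Without likely doublets the KIT/STRA8 ratio of Peg3 was 0.522 (0.190 to 1.15) and no longer counted. With a mitochondrial limit of 5%, Peg3 in the Leydig cells and Grb10 in the KIT/STRA8 cells were not counted.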

How the results depend on the processing

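In each library, 9 of the 10 members were lower and 0 higher in germ than in stromal cells under 13 other settings and with the binned choice of variable genes, and no value that passed the size limit changed sign. Snrpn, which did not pass it, had log2 differences from -0.02 to 0.36 in the control and from -0.22 to 0.42 in the Brca1 vKO library. The median log2 difference over the members ranged more widely. In the control library, where it was -3.24, it was -3.55 with the median of ratios, -3.91 with a pseudocount of 1 CPM and -2.62 with binned variable genes. In the Brca1 vKO library, where it was -3.27, it was -3.60 without likely doublets, -2.95 with a mitochondrial limit of 5%, -3.47 with classes from marker UMIs of single cells and also -3.47 with cells thinned to 2000 UMIs, -3.59 with the median of ratios, -3.82 with a pseudocount of 1 CPM and -2.49 with binned variable genes. With a pseudocount of 1 CPM, 17 other imprinted genes in place of 11 were lower in the Brca1 vKO library. The lower pseudocount widens the differences of genes with low counts by construction. Under the binned choice the class named stromal held 186 and 412 cells in place of 869 and 2005. Its leading genes included Tubb6, Pclaf and Mxd3, as in the cycling stromal cluster. A cluster of 785 and 1880 cells led by Dcn was left unnamed. The binned setting thus compared the germ cells with another set of stromal cells. Apart from the pseudocount, the cause of the shifts was not tested. The count of members that differed between libraries, 11 of 60 pairs of member and class, was 2 of 31 after thinning, which leaves fewer UMIs, and 4 of 40 without classes of under 50 cells, which leaves out KIT/STRA8 and Leydig cells. By class, from 0.258% (Sertoli) to 15% (KIT/STRA8) of all genes differed that much in the main setting. The share of all genes over the pooled classes, or under these alternatives, was not computed. No paired analysis was possible because there was 1 library per genotype. Leaving out a replicate was not possible for the same reason. Of the values of single members under the alternatives, 182 moved by less than their counting interval and 98 by more. The binned choice and the limit of 50 cells were chosen after seeing the data.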
